A study of Rosa rugosa with 4 samples.

Results

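Photorespiration salvages the carbon that Rubisco loses when it fixes oxygen in place of carbon dioxide. The product, 2-phosphoglycolate, is dephosphorylated to glycolate in the chloroplast, oxidized to glyoxylate and aminated to glycine in the peroxisome, and glycine is turned into serine in the mitochondrion. Serine then returns through hydroxypyruvate and glycerate to the chloroplast, and the ammonia released from glycine is taken up again by glutamine synthetase. The pathway runs mainly in green tissue, while the glycine-serine step also feeds the folate pool in tissue that does not photosynthesize.

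The enzymes of this pathway were followed in petals and leaves of *Rosa rugosa*, from 2 petal and 2 leaf RNA-seq libraries of untreated plants grown in a greenhouse. Total RNA was depleted of ribosomal RNA, and all 4 libraries were assembled together into contigs, so that 1 contig is an assembled piece of a transcript and not a whole gene. The labels give no variety, age or flower stage, and do not say whether both libraries of 1 tissue are from different plants, so p-values rest on the spread between these libraries, which may be technical. The members are the contigs whose first database hit is to *Fragaria*, *Rosa*, *Prunus*, *Malus* or *Pyrus* (a Rosaceae hit below) and names an enzyme of photorespiration or of glycine and serine interconversion. This gave 45 of the 65535 contigs in the table, out of 14514 contigs with a Rosaceae hit. They belong to 32 assembly components, which are groups of contigs built from shared reads, and hit 22 genes or database entries, with 40 first hits in *Fragaria*, 3 in *Rosa* and 2 in *Prunus*. Contigs of 1 component or 1 hit gene are not independent measurements. The table is a part of a larger assembly, and contigs outside it were not analysed here, so a missing enzyme says nothing about the plant. One member, TR117245, hit a ureidoglycolate hydrolase, an enzyme of purine breakdown that is not part of photorespiration, and it was listed at 0.

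Levels are in FPKM, mapped fragments scaled by contig length and by library depth. The step between low FPKM values gave the fragments behind each value, and depths of 18500000 and 23600000 mapped fragments for the petal libraries and 26500000 and 20000000 for the leaf libraries. Of the low values checked, 98.74 to 98.89% lay within 0.1 of a whole fragment. Many contigs came from other organisms. Contigs with a hit to grey mould or *Sclerotinia* took 0.0302 and 26.2% of the table's fragments in petal and 0.0766 and 0.0348% in leaf, and aphid contigs took 6.47 and 3.44% in petal and 0.281 and 0.371% in leaf. *Marssonina*, a leaf spot fungus, took 0.0125 and 0.163% in petal and 4.03 and 2.39% in leaf. The tissue labels were checked against markers. The flower scent hydrolase NUDX1 (TR136248) was at 347.12 and 35.45 FPKM in petal, against 0.74 and 0.09 FPKM in leaf. It was chosen after its values were seen, and the list of 46 petal marker contigs it belongs to did not separate the tissues. Of its 25 contigs above 0, both petal values were above in 4, both leaf values were above in 3 and 18 overlapped, with a median log2 difference of -0.79 and sums of 385.61 and 89.51 FPKM in petal, against 20.84 and 124.05 FPKM in leaf. Photosynthesis genes did not separate them either: the 13 contigs of light-harvesting proteins, photosystem subunits and Rubisco activase summed to 124.78 and 56.2 FPKM in petal and to 91.71 and 78.94 FPKM in leaf, and of the 10 above 0, both leaf values were above both petal values in 3, both petal values were above in 1 and 6 overlapped. One of them, the LHCII type 1 contig TR146068, was higher in petal, at 79.56 and 30.51 FPKM, against 16.31 and 20.33 FPKM in leaf. The part of these differences in the results that follow was not tested.

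Of the 45 members, 17 were above 0 in at least 1 library and 28 were listed at 0 in all 4, a share of 62.22%, against 45.76% of Rosaceae-hit contigs and 40.4% of all contigs. Length went with this. The members at 0 had lengths of 181 to 408 nt (median 233), and those above 0 of 226 to 1403 nt (median 316). No contig of the table shorter than 197 nt had a value above 0, and 7 members were below that length. A zero on a short contig is a weak statement, because few fragment positions fit on it: at 226 nt a single fragment was worth 13.3 FPKM in leaf 1.

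**Figure D1:**
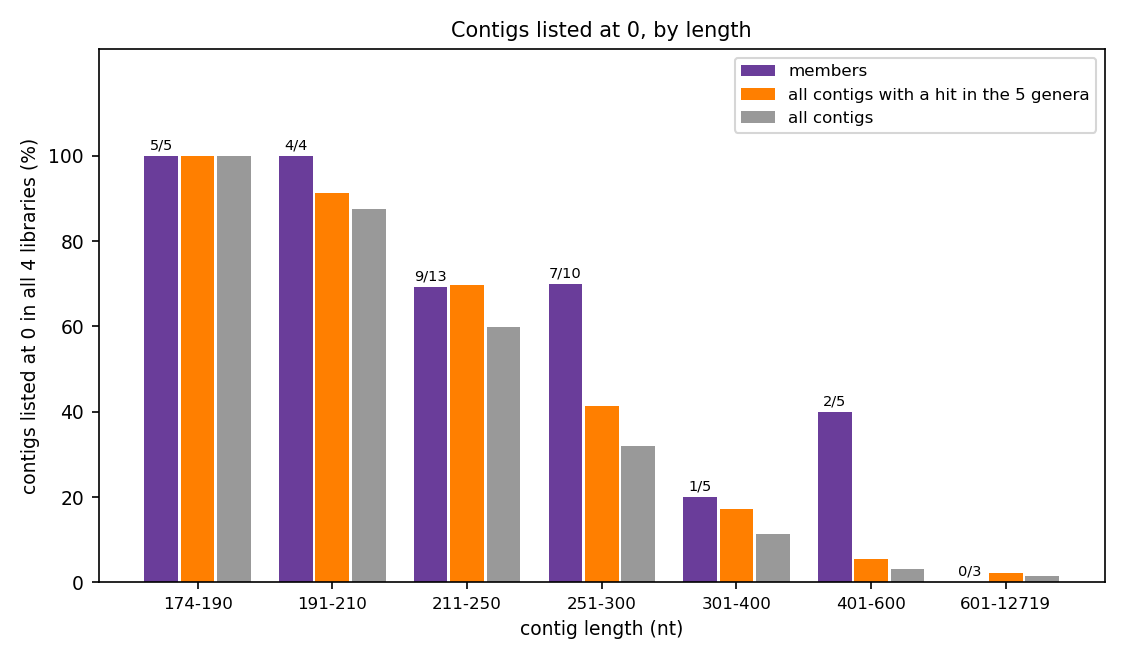
Share of contigs listed at 0 FPKM in all 4 libraries (y axis, %) by contig length in nt (x axis), for the members, all Rosaceae-hit contigs (a first hit in the 5 genera) and all contigs; the fractions give members at 0 out of members in the bin. The share falls with length in all contigs, to 1.602% above 600 nt, and all 9 members up to 210 nt were at 0, while 2 of the 5 members over 400 and up to 600 nt were.

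Most of the 17 members with reads were higher in leaf. In 12 of them both leaf values were above both petal values, in 1 both petal values were above both leaf values, and in 4 the tissues overlapped. Over the 7872 Rosaceae-hit contigs above 0, the leaf libraries were both above in 10.7% and the petal libraries in 12.3%. The median log2 difference, petal minus leaf on log2(FPKM + 1), was -3.37 over the 17 members and 0.11 over those 7872 contigs. Few fragments stand behind most of the values: 6 members had 20 or more fragments in all, of which 5 were higher in leaf and 1 in petal, against 22.6% and 27.2% of the 1160 Rosaceae-hit contigs at that depth. Of the 10 members with 4 to 19 fragments, 7 were higher in leaf, none in petal and 3 overlapped, against 15.3% and 15.2% of 3260 contigs.

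**Figure D2:**
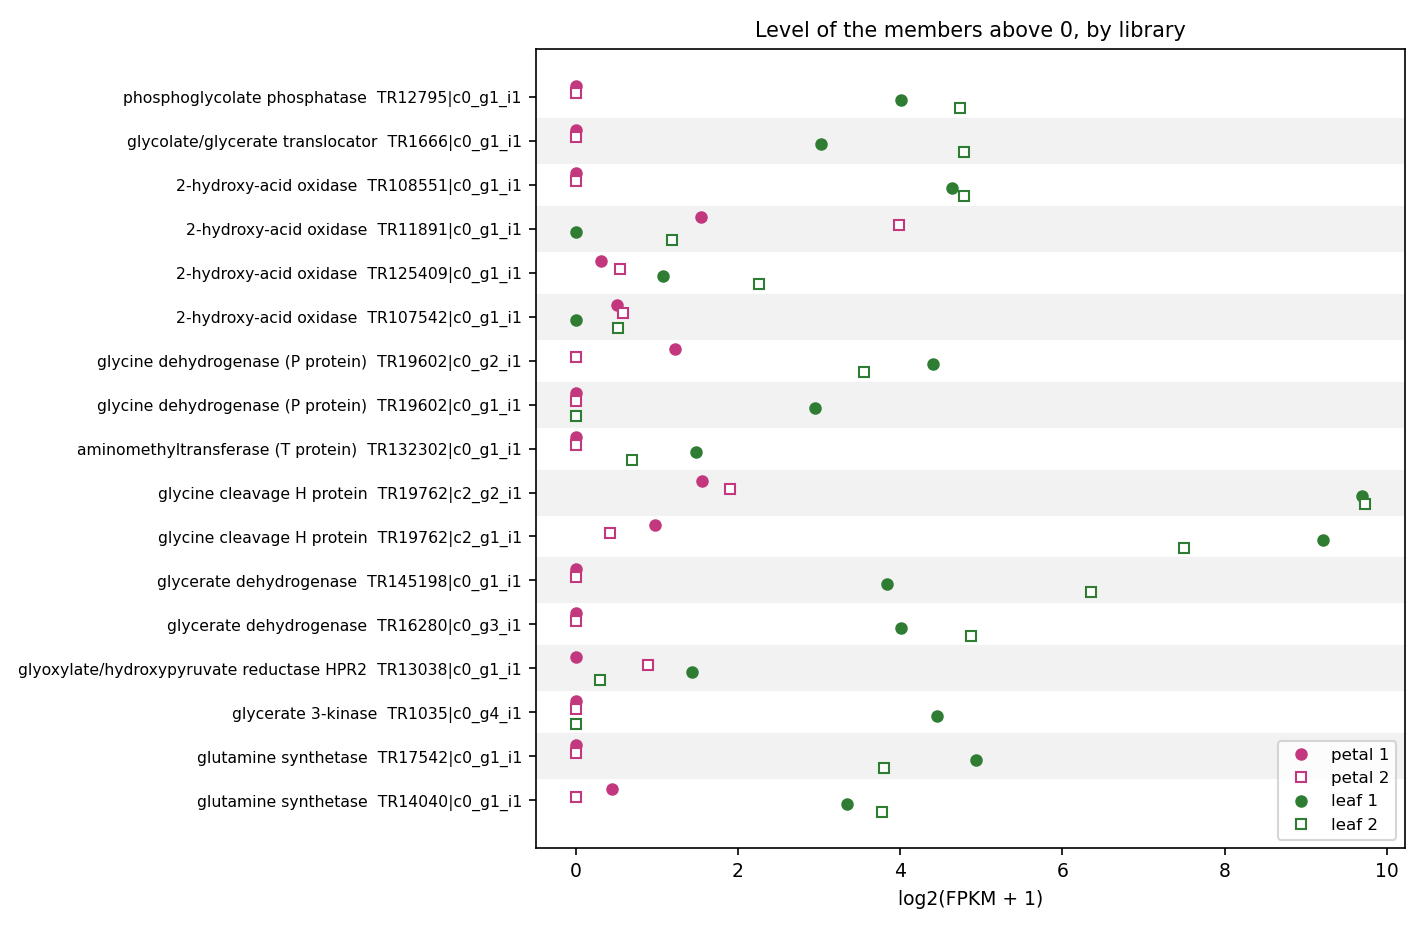
Level of each of the 17 members above 0, as log2(FPKM + 1) on the x axis, in petal (magenta) and leaf (green); filled circles are replicate 1 and open squares replicate 2, and members are ordered by their step in the pathway. The 2 H protein contigs stand far to the right in leaf, near 829 and 851 FPKM for the higher one, and 9 members were at 0 in both petal libraries.

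**Figure D3:**
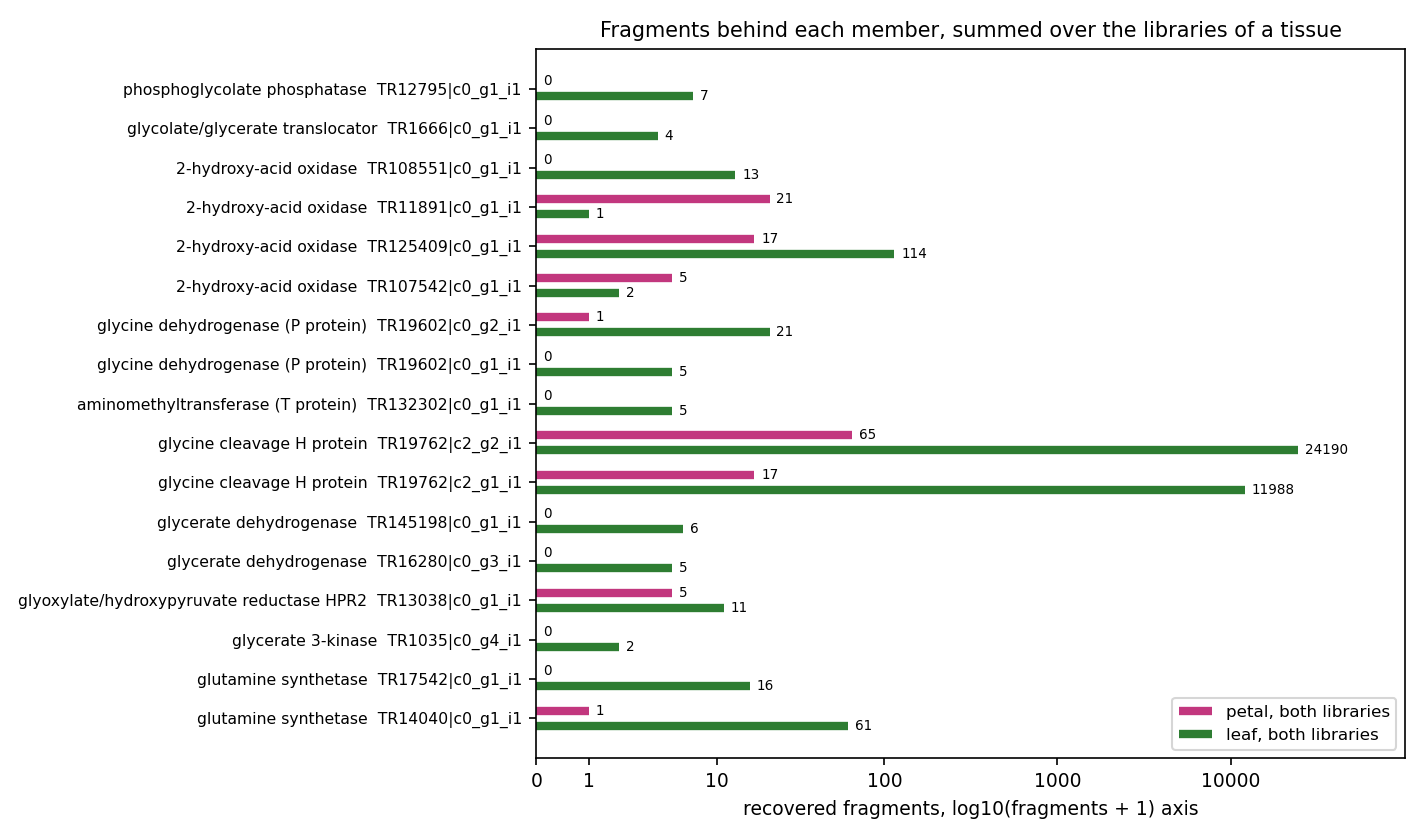
Fragments recovered for the same 17 members, summed over the 2 libraries of a tissue, on a log10(fragments + 1) axis, with the number beside each bar (petal magenta, leaf green). The H protein contigs hold 65 and 17 fragments in petal and 24190 and 11988 in leaf, and the next highest member, TR125409, holds 17 in petal and 114 in leaf.

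The main design tested 7 members. The fit with limma on log2(FPKM + 1) took the 2157 contigs whose mean and SD over the libraries both reached 10 FPKM, and called 24 at an adjusted p under 0.05 (Benjamini-Hochberg over all 2157), 14 higher and 10 lower in petal. All 7 members passed this filter through their leaf values alone. Both H protein contigs were called lower in petal, beside 0.464% of all contigs tested that were called in that direction, while 0.649% were called higher. Since the members tested passed through leaf, a call could only be in that direction, and the direction is read as no support. The other 5 had 0 FPKM in both petal libraries, with log2 differences of -5.09 to -4.37 and an adjusted p of 0.515 each by limma. In this fit every contig was given the variance expected at its level, so the spread of a contig's own libraries had no weight. Once the SD filter was dropped and the mean lowered to 1 FPKM, 14 members entered the fit. The same 2 were called lower, beside 0.0318% of 18894 contigs called lower and 0.0159% called higher. Among Rosaceae-hit contigs alone, 2 of 7 members were called lower, beside 1.85% of 487 contigs called lower and 2.26% called higher. Over the 1160 Rosaceae-hit contigs with 20 or more fragments, 1 of 6 members was called lower (c2_g2 of the H protein), beside 0.0862%. That share is this contig alone, the only one called. An exact permutation test of 2 against 2 libraries cannot go below p = 0.33.

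**Figure D4:**
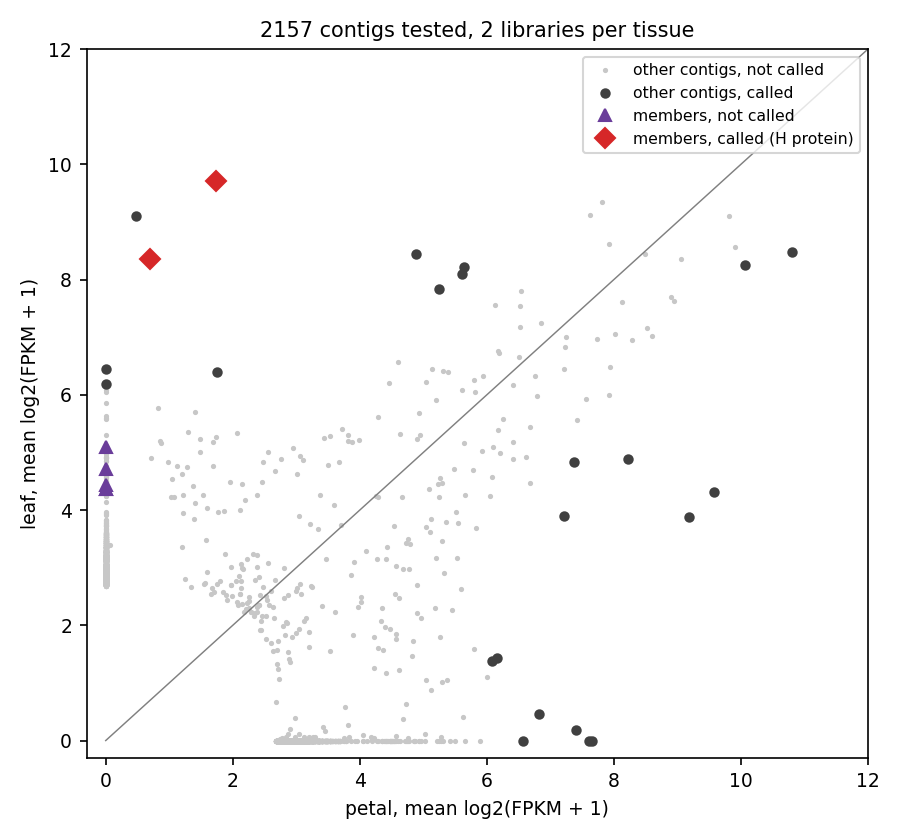
Mean log2(FPKM + 1) over the 2 petal libraries (x axis) and the 2 leaf libraries (y axis) for the 2157 contigs tested, with the line of equal level; red diamonds are the called members, purple triangles the other members tested, dark dots other called contigs. The 2 H protein contigs lie at the top left, high in leaf and low in petal, and the other 5 members lie on the left edge at 0 in petal.

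The H protein of the glycine cleavage system carried the strongest difference of the set. This small lipoyl protein shuttles the aminomethyl group between the other subunits of the mitochondrial complex, which splits glycine into carbon dioxide, ammonia and a one-carbon unit. Contig TR19762|c2_g2_i1 (935 nt, first hit LOC101314855, the mitochondrial H protein 3 of *Fragaria vesca*) had 1.94 and 2.74 FPKM in petal, against 829.28 and 850.91 FPKM in leaf. These were 23 and 42 fragments in petal, and 13639 and 10551 fragments in leaf. The tissues were far apart and the leaf libraries were close to each other. It was the highest contig of the whole table in each leaf library, and stood at place 5588 of the 11285 contigs above 0 in petal 1 and at place 12112 of 27357 in petal 2. The log2 difference was -7.99 (SE 0.73, 95% interval -9.41 to -6.56, adjusted p = 2.76e-24, limma). Without leaf 2 the difference was -7.97 and the adjusted p 0.0645.

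A second contig of the same component and the same hit, TR19762|c2_g1_i1 (936 nt), had 0.97 and 0.34 FPKM in petal, against 592.53 and 179.33 FPKM in leaf. It held 12 and 5 fragments in petal and 9761 and 2227 in leaf. Every leaf value was again above every petal value, but the leaf libraries differed more than for the first contig. The log2 difference was -7.65 (SE 0.996, adjusted p = 8.24e-12, limma), and the call was lost when any 1 library was left out (log2 -8.51 to -6.79, adjusted p 0.0610 to 0.2003). From the fragments, this contig was 672-fold lower in petal (95% counting interval 415 to 1142), 1220-fold without petal 1, 428-fold without petal 2, 290-fold without leaf 1 and 959-fold without leaf 2. The sequences of the 2 contigs were not compared. If they are near-identical, the estimate can divide shared reads between them, so the split is uncertain. The share of their summed FPKM on the first contig was 66.7 and 89.0% in petal, and 58.3 and 82.6% in leaf.

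The sum over both contigs does not depend on that split. It was 2.91 and 3.08 FPKM in petal, against 1421.81 and 1030.24 FPKM in leaf, or 2.995 ± 0.12 in petal and 1226 ± 277 in leaf (SD, n = 2 each). The level was 409-fold lower in petal, and 344-fold to 475-fold lower with 1 library left out in turn. As a share of all fragments on Rosaceae-hit contigs of the table, the H protein took 0.0198% (Wilson 95% interval 0.0142 to 0.0275) and 0.0344% (0.0259 to 0.0457) in petal, against 13.1% (12.9 to 13.3) and 10.3% (10.1 to 10.5) in leaf. These intervals cover counting error only. The shares are not shares of the library, since all contigs of the table held only 0.877 and 0.803% of the mapped fragments in leaf. The H protein therefore made up most of the members' fragments in leaf, and the 43 other members together took 0.00621 and 0.0286% in petal, against 0.0694 and 0.120% in leaf. In bulk tissue, fewer cells that express a gene and less RNA of it per cell cannot be told apart.

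Contigs of the same protein from other organisms were at low levels. The *Marssonina* H protein contig TR15367 was at 0 and 0.45 FPKM in petal, against 0.85 and 0.45 FPKM in leaf. The aphid H protein contig TR115789 was at 1.88 and 1.49 FPKM in petal, against 0 in both leaf libraries.

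**Figure D5:**
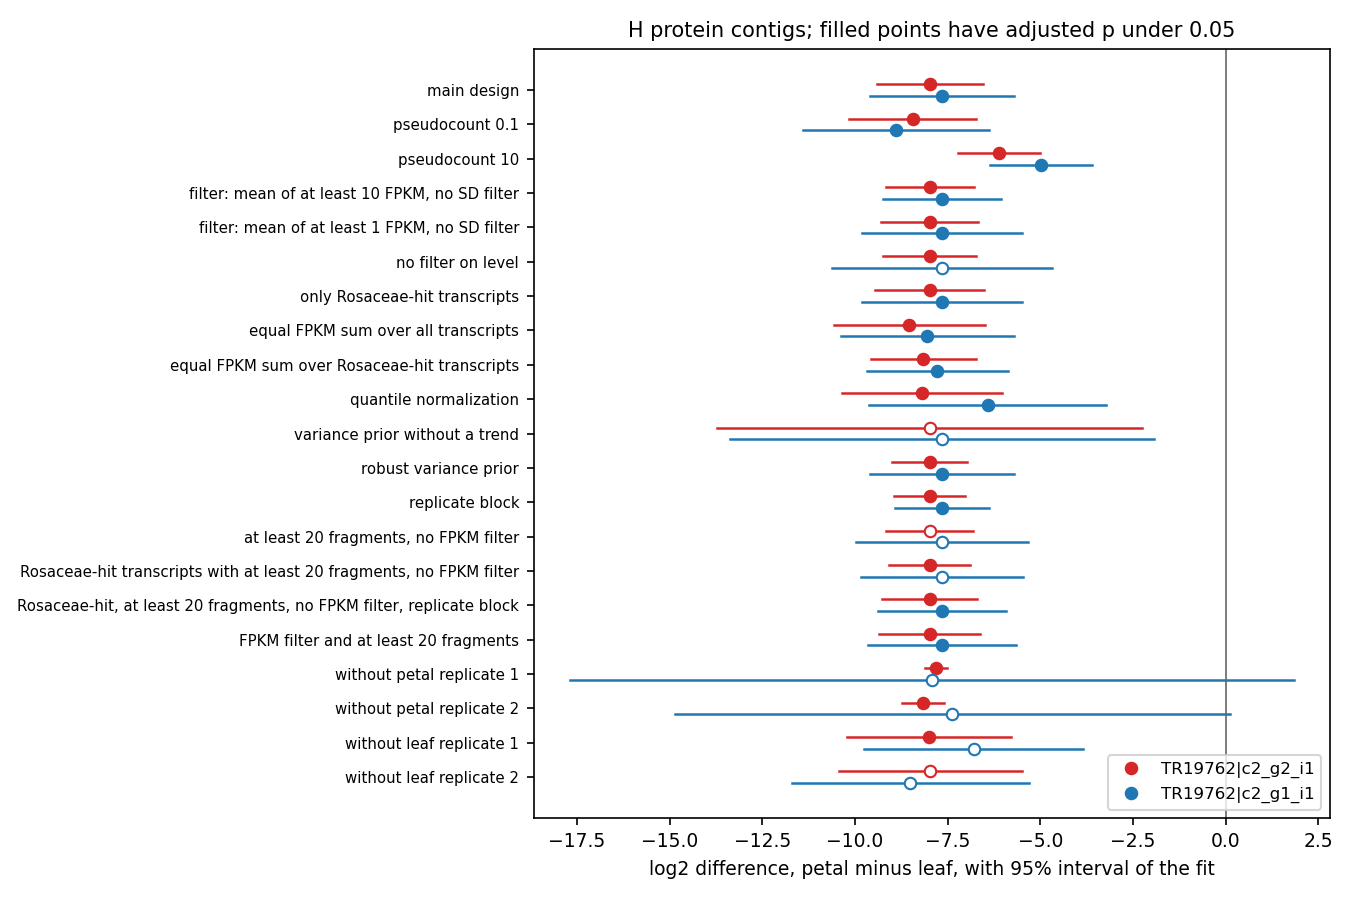
Log2 difference of the 2 H protein contigs, petal minus leaf, with the 95% interval of the fit (x axis), under the main design and each other setting (rows); filled points have an adjusted p under 0.05 and open points do not. All differences are below 0, between -8.54 and -6.11 for c2_g2 and between -8.89 and -4.99 for c2_g1, while the interval of c2_g1 crosses 0 when either petal library is left out.

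The other subunits of the complex were measured on short contigs with few reads. The P protein, the glycine dehydrogenase that decarboxylates glycine, had 6 contigs with first hit LOC101308733, 2 of them above 0. TR19602|c0_g2_i1 (316 nt) was at 1.34 and 0 FPKM in petal, against 20.15 and 10.78 FPKM in leaf, from 1 and 0 fragments in petal and 15 and 6 in leaf. The leaf values were both above the petal values, and the level was 26.8-fold lower in petal with a 95% counting interval of 4.32 to 1111. Without petal 1 it was 4.93-fold lower at a floor of 3 petal fragments, and without petal 2 it was 12.1-fold lower. Such a floor stands in for a count of 0 and takes the leaf count as exact. TR19602|c0_g1_i1, of the same component and length, was at 0 in petal, against 6.72 and 0 FPKM in leaf, so the tissues overlapped. The 4 contigs at 0 were 209 to 288 nt long, and 3 fragments on them would have been 5.74 to 93.5 FPKM. The T protein, the aminomethyltransferase that passes the one-carbon unit to tetrahydrofolate, had a 394 nt contig (TR132302, LOC101297911) at 0 in both petal libraries and at 1.80 and 0.61 FPKM in leaf. Those leaf values were 4 and 1 fragments. The hit of TR132302 had an expect value of 1e-17, so it is less surely a T protein transcript. A second T protein contig of 186 nt was at 0.

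Serine hydroxymethyltransferase takes the one-carbon unit and a further glycine and makes serine. All 6 of its contigs, from 205 to 408 nt, were listed at 0 in every library. For 3 of them this is a length at which few contigs were at 0: the contigs of component TR15590 are 386 to 408 nt long, and of the 2424 contigs between 380 and 410 nt only 4.95% were at 0 (9.85% of the 528 with a Rosaceae hit). On the TR15590 contigs, 3 fragments would have been 1.07 to 1.99 FPKM, which is the level that a count of 0 allows, for counting error only. Their hits had expect values of 4e-20, 3e-15 and 4e-17, so they are less surely transcripts of this enzyme. A contig whose first hit is the *Eucalyptus* serine hydroxymethyltransferase 4, TR18509|c0_g1_i1 (387 nt), lies outside the 5 genera and had 4.31 and 1.29 FPKM in petal and 1.94 and 7.2 FPKM in leaf. Its tissues overlapped.

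At the start of the pathway, phosphoglycolate phosphatase removes the phosphate of 2-phosphoglycolate. Contig TR12795 (257 nt, LOC101304073) hit phosphoglycolate phosphatase 2, and whether that isoform is the chloroplast form was not tested. It was at 0 in both petal libraries and at 15.11 and 25.57 FPKM in leaf, from 3 and 4 fragments. With a floor of 3 fragments over the petal libraries, the level was 2.86-fold lower in petal, and its log2 difference was -4.37 (adjusted p = 0.515, limma). This bound and those below leave out the counting error of the few leaf fragments. The bound was 1.55-fold without petal 1, 1.31-fold without petal 2, 3.71-fold without leaf 1 and 2.19-fold without leaf 2. The other 3 phosphatase contigs, of 190 to 261 nt, were at 0. The plastidal glycolate/glycerate translocator 1, which exports glycolate from the chloroplast and takes glycerate back, had 1 contig (TR1666, 245 nt, LOC101312839). It was at 0 in both petal libraries and at 7.11 and 26.60 FPKM in leaf, which were 1 and 3 fragments. The leaf values lay above the petal values, but so few fragments set a bound of only 1.59-fold, which was 2.68-fold without leaf 1 and fell below 1 when petal 1, petal 2 or leaf 2 was left out.

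The peroxisomal 2-hydroxy-acid oxidases include those that oxidize glycolate to glyoxylate and hydrogen peroxide. Contigs of this family were the members that did not all go one way. TR108551 (272 nt, LOC101292384) was at 0 in both petal libraries and at 23.91 and 26.50 FPKM in leaf, from 7 and 6 fragments. At a floor of 3 petal fragments the level was 5.47-fold lower in petal, and the log2 difference was -4.71 (adjusted p = 0.515, limma). The bound was 2.97-fold without petal 1 and 2.49-fold without petal 2.

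Contigs with a first hit to GLO1 (LOC101295602) showed both directions. TR11891 (337 nt) was at 1.92 and 14.81 FPKM in petal, against 0 and 1.27 FPKM in leaf, from 2 and 19 fragments in petal and 0 and 1 in leaf. It was the only member with both petal values above both leaf values. The level was 16.7-fold higher in petal (95% counting interval 2.70 to 693), 27.4-fold without petal 1, 3.55-fold without petal 2 and 7.12-fold without leaf 1. Without leaf 2 it was 3.21-fold higher at a floor of 3 leaf fragments. Petal 2, the library with the large share of grey mould fragments, held 19 of its 22 fragments, and the part of that was not tested.

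TR125409 (1403 nt), the longest member and also a GLO1 hit, went the other way. Its hit was weak for its length, with an expect value of 9e-15 against 0 for the H protein contigs. This contig is therefore less surely a GLO1 transcript. It was at 0.24 and 0.46 FPKM in petal, against 1.10 and 3.78 FPKM in leaf, from 5 and 12 fragments in petal and 32 and 82 in leaf. The tissues did not overlap, and the level was 6.21-fold lower in petal (95% counting interval 3.72 to 11.1). Leaving out a library gave 4.90-fold (petal 1), 9.39-fold (petal 2), 10.4-fold (leaf 1) and 3.03-fold (leaf 2). Neither contig reached the mean of 10 FPKM, so neither was tested in the main design. In a fit over the 1160 Rosaceae-hit contigs with 20 or more fragments, their log2 differences were 2.17 for TR11891 and -1.24 for TR125409, with unadjusted p of 0.116 and 0.111 by limma. TR11891 reached 20 fragments through petal alone and TR125409 through leaf alone, so the directions are read as no support. The remaining GLO1 contig, of 296 nt, was at 0. The GLO4-like contig TR107542 (546 nt, LOC101307515) also had a weak hit for its length, with an expect value of 4e-18. It was at 0.42 and 0.50 FPKM in petal, against 0 and 0.43 FPKM in leaf, so the tissues overlapped. A short contig of LOC101292384 was at 0.

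Further peroxisomal steps gave no values. Glutamate--glyoxylate aminotransferase, which makes glycine from glyoxylate, had 1 contig of 215 nt, at 0, on which 3 fragments would have been 56.9 to 72.0 FPKM. No contig with a Rosaceae hit named catalase, which removes the hydrogen peroxide, or serine--glyoxylate aminotransferase. Every contig of the table named as a catalase had its first hit in a fungus or an aphid.

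Hydroxypyruvate, formed from serine, is reduced to glycerate by glycerate dehydrogenase, the peroxisomal hydroxypyruvate reductase. All 5 contigs hit LOC101293623, and 2 were above 0, both in leaf alone. TR145198|c0_g1_i1 (226 nt) was at 0 in petal, against 13.32 and 80.39 FPKM in leaf, from 1 and 5 fragments. Its log2 difference was -5.09 (adjusted p = 0.515, limma), and -6.35 without leaf 1. TR16280|c0_g3_i1 (243 nt) was at 0 in petal, against 15.12 and 28.18 FPKM in leaf, from 2 and 3 fragments, with a log2 difference of -4.44 and the same adjusted p. The leaf values of both contigs lay above the petal values in each library. The bounds, with leaf counts taken as exact, were 2.26-fold and 1.98-fold. With a petal library left out they were 1.05-fold to 1.21-fold for the first and 0.914-fold to 1.07-fold for the second, and for the first 4.15-fold without leaf 1 and 0.688-fold without leaf 2.

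The cytosolic form, glyoxylate/hydroxypyruvate reductase HPR2, had a weak hit (TR13038, 537 nt, LOC101291545, expect value 2e-07). It was at 0 and 0.86 FPKM in petal, against 1.69 and 0.23 FPKM in leaf, and the tissues overlapped. D-glycerate 3-kinase, which phosphorylates glycerate in the chloroplast and closes the cycle, had 7 contigs with 1 first hit (LOC101303917), 6 of them from component TR1035. One, TR1035|c0_g4_i1 (233 nt), was at 20.86 FPKM in leaf 1 from 2 fragments and at 0 in leaf 2 and both petal libraries. The other 6 were at 0.

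Glutamine synthetase binds the ammonia set free by glycine cleavage. The 3 contigs had first hits to chloroplast glutamine synthetase entries of *Rosa chinensis*. TR17542 (286 nt) was at 0 in both petal libraries and at 29.54 and 12.91 FPKM in leaf, from 12 and 4 fragments. At a floor of 3 petal fragments its level was 6.83-fold lower in petal, with a log2 difference of -4.37 (adjusted p = 0.515, limma). The bound was 3.73-fold without petal 1, 3.10-fold without petal 2, 3.95-fold without leaf 1 and 9.03-fold without leaf 2.

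TR14040 (437 nt) had more fragments at a lower level. It was at 0.36 and 0 FPKM in petal, against 9.14 and 12.72 FPKM in leaf, from 1 and 0 fragments in petal and 30 and 31 in leaf. The leaf libraries were close to each other and both far above petal, with a level 66.9-fold lower in petal (95% counting interval 11.5 to 2662). Without petal 1 the level was 12.3-fold lower at a floor of 3 petal fragments, and without petal 2 it was 29.6-fold lower. Its mean was below the filter. In the fit over Rosaceae-hit contigs with 20 or more fragments, the log2 difference was -3.34 (adjusted p = 0.219, limma). It reached 20 fragments through its leaf fragments alone, so the direction is read as no support. The remaining contig, of 187 nt, was at 0.

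Contigs picked by product words for partner enzymes and carriers were counted in the same way. The words also caught carriers of other membranes, so the list is not one of pathway steps alone. Of 42 Rosaceae-hit contigs for partner enzymes and carriers (ferredoxin-dependent glutamate synthase, malate dehydrogenases, dicarboxylate transporters, ascorbate peroxidases, alanine--glyoxylate aminotransferases and folate enzymes among them), 20 were above 0. Both leaf values were above in 4, both petal values were above in 4 and 12 overlapped, with a median log2 difference of -0.46. Among those higher in petal, TR110087, TR129025 and TR142500 hit tonoplast dicarboxylate transporters, not the chloroplast one. The chloroplast dicarboxylate transporter contig TR111681 (184 nt) was at 0. Over all Rosaceae-hit contigs above 0 the shares were 10.7% for leaf and 12.3% for petal. None of the 4 in the limma fit was called, beside 0.464% of all contigs called lower and 0.649% called higher. The ferredoxin-dependent glutamate synthase contig TR108944, the partner of glutamine synthetase, was at 0 in petal, against 1.47 and 11.8 FPKM in leaf, from 1 and 6 fragments. TR14204 and TR17106, with the same hit gene, were at 0 in every library. The cytosolic ascorbate peroxidase contig TR105019, of a family that removes hydrogen peroxide, was at 0 and 2.36 FPKM in petal, against 23.11 and 52.67 FPKM in leaf. The tonoplast dicarboxylate transporter contig TR142500 was at 5.33 and 17.33 FPKM in petal, against 0 and 1.42 FPKM in leaf. In TR108944, TR105019 and TR142500 the tissues did not overlap. The phosphorylated route to serine starts from 3-phosphoglycerate and does not need photorespiration. It had 2 contigs, of 194 and 265 nt, both at 0, and a zero at such lengths is a weak statement.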

How the data were processed

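The authors assembled the 4 libraries (paired-end, ribosomal RNA removed) with Trinity, estimated levels with RSEM on bowtie alignments and annotated contigs against NCBI nt/nr. Deposited values are FPKM with 2 decimals. No genome was used here, and no contig or protein sequence was read. RefSeq gene names matched 0 of the members' hits.

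Members and lists were chosen with earlier results of these data known. Named were all members called, all that averaged 1 FPKM or more, and the highest of each role. The study's filter (mean and SD of at least 10 FPKM) was kept. FPKM are not counts, so in place of the study's count test limma 3.58.1 (R 4.3.3) with a variance trend was run on log2(FPKM + 1), tissue as the single term, two-sided. The pseudocount of 1 understates changes of low contigs. Fragments were recovered from the FPKM steps as a function of contig length. Folds from fragments have exact 95% intervals. Bounds use 3 fragments over the petal libraries left in.

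On simulated data with a fixed spread for every contig, the limma fit called 0% of 136 contigs changed 4-fold and 11.2% of 188 changed 16-fold, with 0 unchanged contigs called. Only 828 and 855 simulated contigs passed the filter, against 2157 in the data. Contigs with reads in a single library were not modelled as such, so this is not the false call rate of the real fit. Alternatives were other pseudocounts, filters, scalings, variance priors, a replicate block and each library left out.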

Additional observations from a re-analysis of the deposited data

How the results depend on the processing

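The main design called 24 contigs. The count was 9 with a mean of at least 1 FPKM (6 of them among the 24), 3 with no filter (2 among the 24), 13 with an equal FPKM sum over all contigs (13 among the 24), 9 with quantile normalization (7 among the 24) and 0 with no variance trend (14 at an unadjusted p under 0.05, limma). Settings chosen after seeing the data called 0 of 5210 contigs with 20 or more fragments (307 unadjusted), 1 of the 1160 with a Rosaceae hit, 5 of these with a replicate block, and 24 of 373 with 20 or more fragments and the FPKM filter (20 among the 24, both H protein contigs included). The block alone called 51. The labels do not say that equal numbers share a plant or day, and with only 2 pairs this cannot be settled from the data: deviations of equal numbers correlated at 0.041 over the 2157 contigs and at 0.499 over the 1160, where the block gave c2_g1 an adjusted p of 0.0362 (limma). Leaving out a library called 0 (without leaf 2, 584 unadjusted) to 1219 contigs (without petal 1). Of those 1219 called contigs, 1173 had equal values in both libraries of a tissue. In the fits with a library left out, 1 tissue has a single library, assumed to vary like the other. The p-values without petal 1 for TR108551 and without leaf 1 for TR145198 were under 0.05 with near-equal or equal values in the pair left, and are not read as evidence. The median difference of all contigs tested was 2.21 as deposited, 0.25 with equal Rosaceae sums and -2.72 with equal sums over all contigs.

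H protein contig c2_g2 (-7.99) missed the threshold by limma without a variance trend (adjusted p = 0.407), with 20 or more fragments (0.205) and without leaf 2, with a range of -8.16 to -7.81 over libraries left out. Contig c2_g1 (-7.65) missed it in those 2 fits (0.407, 0.469), without a filter (0.427), among Rosaceae-hit contigs with 20 or more fragments (0.111) and with any library left out (-8.51 to -6.79). With 20 or more fragments, 5 members were higher in leaf, against 12. No log2 difference of a member in the main fit changed sign. The fragment ratio of TR13038, leaf over petal, was 2.22 and fell to 0.479 without leaf 1. Depth limits the 11 members with 1 to 19 fragments.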

Other observations

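The same product words found 29 contigs whose first hit lies outside the 5 genera, 10 in *Marssonina*, 10 in the aphid *Acyrthosiphon* and the rest in other fungi, animals and plants. The 10 aphid contigs summed to 7.4 and 19.46 FPKM in petal and to 0.22 and 0 FPKM in leaf, and the 10 *Marssonina* contigs to 0 and 0.8 FPKM in petal and to 8.27 and 3.94 FPKM in leaf. A swallowtail (*Papilio*) serine hydroxymethyltransferase contig, TR13871, was at 0 and 10.2 FPKM in petal, against 0 in both leaf libraries.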
